A study of Homo sapiens with 4 samples.

Results

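Collagen chain genes were taken as the genes whose symbol is COL, a number, A and a number. The deposited table held 33 of them among 15942 genes, and all 33 passed the low-count filter that left 15557 genes for testing. They were grouped as 8 fibrillar chains, 8 fibril-associated chains with interrupted helices (FACIT), 5 basement membrane chains of type IV and 12 others. A further 11 chain genes of the class list, COL3A1 and COL11A2 among them, were not analysed here.

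The RNA was from H9, an established line of human embryonic stem cells, grown on Matrigel in E8-supplemented medium. The 2 siUPF1 libraries came from cells given a small interfering RNA (siRNA) against UPF1, and the 2 siLuc libraries from cells given an siRNA against luciferase, which human cells do not carry. UPF1 is the RNA helicase at the centre of nonsense-mediated decay (NMD), which removes transcripts whose translation ends early. The labels' treatment text, which is the same for every library, speaks of an siRNA against UPF3A and of an actinomycin D time course, and ties no time to a library. Both control columns carry one name, so they are called control a and control b, and no label says whether a group's libraries were grown apart. The p-values therefore weigh the difference between groups only against how far libraries of a group lay apart, a spread that may be technical.

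Collagen chains wind around each other in groups of like or unlike chains to form a helix built from a glycine-led repeat, and the assembled molecules are processed outside the cell into fibrils, networks or membrane-bound forms. Fibrillar chains form the fibrils of bone, tendon, skin and cartilage, FACIT chains sit on the surface of those fibrils, and type IV chains form the sheet of basement membranes. Pluripotent stem cells make and rest on a basement membrane, while the fibrillar collagens are best known from mesenchymal tissues.

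The libraries held 10058515 and 11200973 counts (siUPF1 replicates 1 and 2) and 8887239 and 9937231 counts (controls a and b). UPF1 stood at 60.8 and 78.2 CPM (counts scaled to library size with TMM factors, per 1000000) in the siUPF1 libraries, against 219 and 205 CPM in the controls, a log2 fold change of -1.60 (SE 0.07). All 8 stem cell markers on a fixed list were measured, at a summed 1615 to 1750 CPM in the siUPF1 libraries and 1815 to 1952 CPM in the controls, and 4 of them were lower after UPF1 knockdown, among them POU5F1 (-0.25, SE 0.07), L1TD1 (-0.23, SE 0.07) and SOX2 (-0.20, SE 0.07), where 9.14% of all tested genes were called down. The number of these markers called lower was 2 in DESeq2 and 1 with the trend on read density removed. Without control a, POU5F1 stood at -0.21, L1TD1 at -0.17 and SOX2 at -0.13, and each lost its call. Without siUPF1 replicate 2 they stood at -0.19, -0.17 and -0.19, and POU5F1 and L1TD1 lost their calls. All 8 markers are densely read, at 0.444 to 0.874 reads per transcript base. Within each group the libraries lay further apart than counting error gives (chi-square per degree of freedom 2.85 for siUPF1 and 1.70 for the controls, against 8.65 to 9.42 across groups). In bulk RNA, a change in the number of cells of a type cannot be told apart from a change in RNA per cell.

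After UPF1 knockdown 11 collagen genes rose, 6 fell and 16 did not pass, with 0.05 as the limit on the adjusted p (the quasi-likelihood test of edgeR, with Benjamini-Hochberg adjustment over all genes tested). Of all tested genes, 25.9% were called in either direction, 16.8% up and 9.14% down, so the called share of the collagen genes, 51.5%, lay above the background. The median log2 fold change was 0.09 for the members and -0.01 for all tested genes. Most shifts were small. With a fold of at least 2 added to the limit, COL12A1 and COL8A1 rose and COL13A1 fell, where 3.46% of all genes were called, 2.53% up and 0.926% down. Classes were mixed, with 3 up and 2 down of 8 fibrillar chains, 3 up and 1 down of 8 FACIT chains, and 3 up and 3 down of the 12 others, while 2 of 5 type IV chains rose and 0 fell. In DESeq2 6 members rose and 2 fell, where 11.2% of all genes were called, 8.19% up and 2.99% down.

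**Figure D1:**
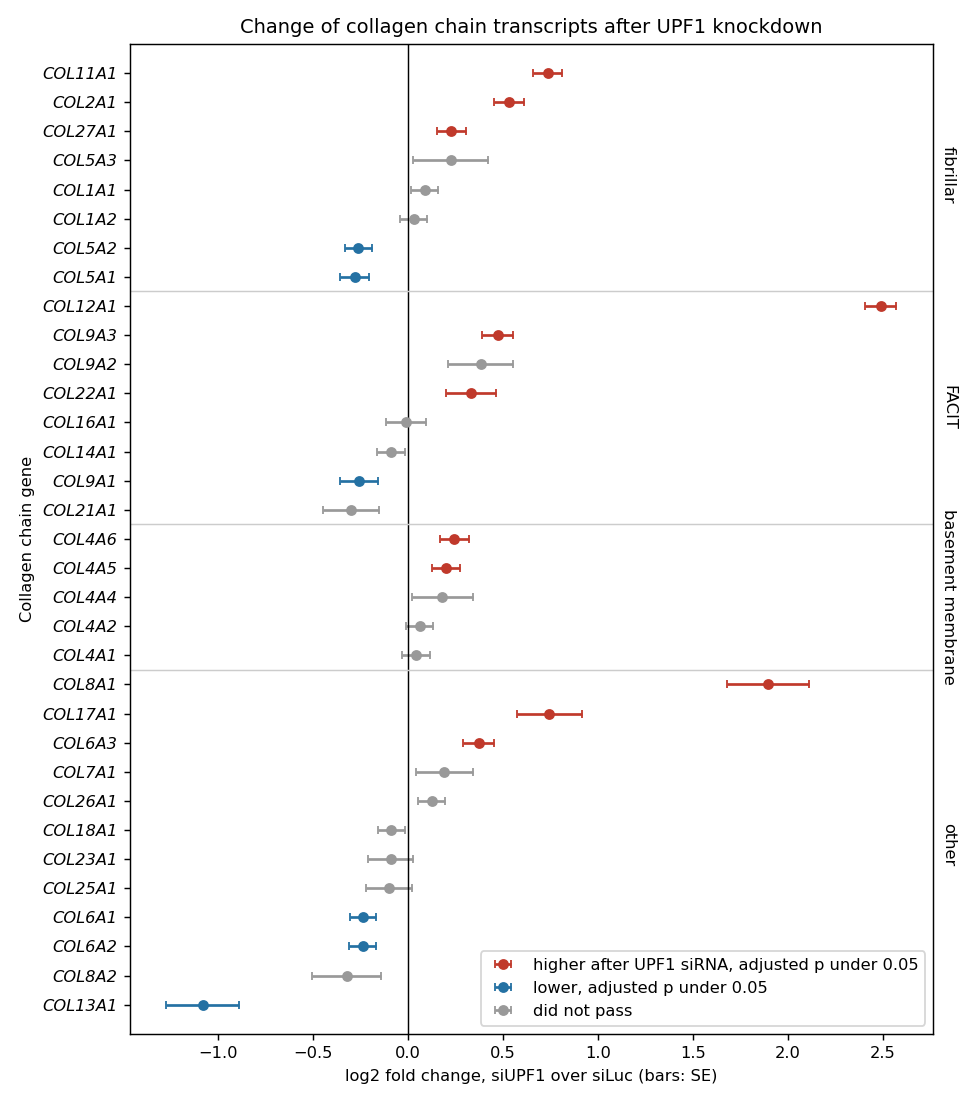
The log2 fold change of each of 33 collagen chain genes after UPF1 knockdown, siUPF1 over siLuc, with its SE as a bar, by class. COL12A1 (2.49) and COL8A1 (1.89) lie far to the right of the other members and COL13A1 (-1.08) to the left, while COL1A1, COL1A2, COL4A1 and COL4A2 lie near 0.

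COL12A1, which encodes the FACIT chain of type XII collagen found along type I fibrils in tendon and other dense tissue, was the most changed member. It stood at 179 and 139 CPM in the siUPF1 libraries, against 25.5 and 30.8 CPM in the controls, from raw counts of 1789 and 1560 against 225 and 309. Both siUPF1 libraries were well above both controls. The log2 fold change was 2.49 (SE 0.08, adjusted p = 4.41e-189, edgeR quasi-likelihood test), or 5.61-fold. Per kilobase of transcript COL12A1 ranked at place 15 of the 33 members in the siUPF1 libraries and at place 27 in the controls. It made up most of the difference in summed FACIT transcripts: the 8 FACIT chains summed to 458 and 438 CPM in the siUPF1 libraries, against 298 and 311 CPM in the controls, and the 7 others without COL12A1 to 279 and 299 CPM, against 272 and 280 CPM.

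COL8A1, a short chain of the network-forming type VIII collagen of vessel walls and the cornea, had the second largest rise. It stood at 13.5 and 11.05 CPM in the siUPF1 libraries, against 2.83 and 3.69 CPM in the controls, from 135 and 124 counts against 25 and 37. The groups did not overlap, and the log2 fold change was 1.89 (SE 0.22, adjusted p = 1.24e-16, edgeR quasi-likelihood test). Its partner chain gene COL8A2 did not pass. COL8A2 had 7.20 and 9.71 CPM in the siUPF1 libraries, against 8.94 and 12.2 CPM in the controls, so that the groups overlapped (-0.32, SE 0.18, adjusted p = 0.191). Its log2 fold change ran from -0.56 without siUPF1 replicate 2 to -0.08 without control b. COL8A2 was called lower in 1 of 12 alternatives, without siUPF1 replicate 2.

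**Figure D2:**
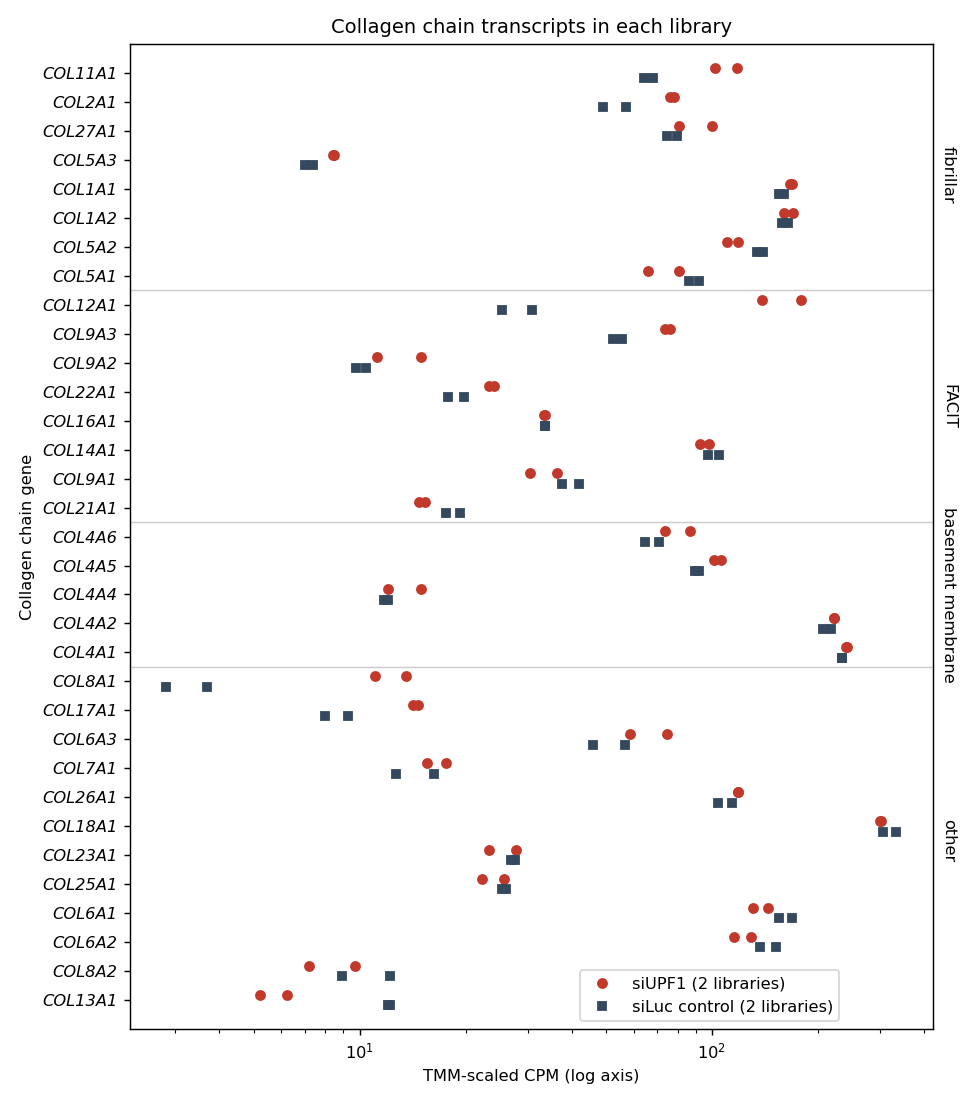
TMM-scaled CPM of each collagen chain gene in each library on a log axis, by class, with siUPF1 libraries as circles above the siLuc controls as squares. The siUPF1 circles of COL12A1 (139 and 179 CPM) and COL8A1 (11.05 and 13.5 CPM) stand apart from the controls, and those of COL16A1 (33.4 and 33.6 CPM) fall beside the control values (33.6 and 33.7 CPM).

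Among the fibrillar chains, COL11A1 and COL2A1, chains of the thin fibrils of cartilage, rose. COL11A1 stood at 118 and 102 CPM in the siUPF1 libraries, against 64.0 and 67.9 CPM in the controls (0.74, SE 0.08, adjusted p = 2.04e-20, edgeR quasi-likelihood test). COL2A1, the cartilage collagen itself, stood at 77.9 and 76.3 CPM in the siUPF1 libraries, against 49.1 and 57.2 CPM in the controls (0.53, SE 0.08, adjusted p = 1.68e-09). Neither gene's groups overlapped. COL9A3, a FACIT chain of type IX collagen, which coats type II fibrils, rose as well, to 73.5 and 76.3 CPM in the siUPF1 libraries, against 55.6 and 52.5 CPM in the controls (0.47, SE 0.08, adjusted p = 1.32e-07). COL9A3 exons overlap those of TCFL5 on the other strand, and no source used here says whether reads were counted by strand. Exons of COL9A1, COL18A1, COL5A3 and COL16A1 also overlap those of a gene on the other strand. On the same strand, COL17A1 overlaps MIR936 and COL7A1 overlaps MIR711.

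Of the other chains of type IX collagen, COL9A1 went the other way and COL9A2 did not pass. COL9A1 had 30.4 and 36.3 CPM in the siUPF1 libraries, against 37.7 and 42.0 CPM in the controls, and was called lower by a narrow margin (-0.26, SE 0.10, adjusted p = 0.0439, edgeR quasi-likelihood test). COL9A2 had 11.2 and 15.0 CPM in the siUPF1 libraries, against 10.4 and 9.78 CPM in the controls, with both siUPF1 libraries above both controls (0.38, SE 0.17, adjusted p = 0.07785). It passed in 1 of 12 alternatives, without siUPF1 replicate 1 (0.57, adjusted p = 0.0065), and stood at 0.15 (adjusted p = 0.627) without siUPF1 replicate 2. The ratio of COL9A3 to COL9A1, per kilobase of transcript, was 3.15 and 2.74 in the siUPF1 libraries, against 1.92 and 1.63 in the controls. The call of COL9A1 was lost in 7 of 12 alternatives. Of a fixed list of 5 chondrocyte markers 3 were measured, and they summed to 62.8 and 68.5 CPM in the siUPF1 libraries, against 67.3 and 77.9 CPM in the controls. SOX9, the chondrocyte transcription factor, was lower (-0.28, SE 0.11), as was ACAN, the cartilage proteoglycan gene (-0.68, SE 0.21), whose groups overlapped, and MATN3 did not pass. Neither SOX9 (adjusted p = 0.282) nor ACAN (adjusted p = 0.275) passed in DESeq2. Without control b ACAN stood at -0.086 (adjusted p = 0.887, edgeR quasi-likelihood test), and without siUPF1 replicate 2 at -0.45 (adjusted p = 0.152). SOX9 stood at -0.11 (adjusted p = 0.461) without siUPF1 replicate 1, and did not pass without either control.

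Type V chains, which limit the width of type I fibrils, moved the other way. COL5A1 had 66.0 and 80.6 CPM in the siUPF1 libraries, against 92.1 and 86.4 CPM in the controls (-0.28, SE 0.08, adjusted p = 0.00196, edgeR quasi-likelihood test). COL5A2 had 119 and 110.2 CPM in the siUPF1 libraries, against 134 and 139.9 CPM in the controls (-0.26, SE 0.07, adjusted p = 0.00186). Both siUPF1 libraries lay below both controls for each gene. COL5A1 per kilobase stood at 0.460 and 0.607 of COL5A2 in the siUPF1 libraries, against 0.569 and 0.513 in the controls, so the ratio of the pair overlapped. The third type V chain gene, COL5A3, was near the bottom of the members in level and did not pass, at 8.40 and 8.46 CPM in the siUPF1 libraries, against 7.02 and 7.38 CPM in the controls. COL5A1 did not pass without siUPF1 replicate 1 (-0.14, adjusted p = 0.154) or without control a (adjusted p = 0.145), nor in DESeq2 (adjusted p = 0.0946), and neither did COL5A2 without control b (adjusted p = 0.103).

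COL11A1 can assemble with type V chains as well as with COL2A1. The ratio of COL11A1 to COL5A1, per kilobase, was 2.04 and 1.455 in the siUPF1 libraries, against 0.796 and 0.9003 in the controls, and these did not overlap. The ratio of COL11A1 to COL2A1 was 1.055 and 0.937 in the siUPF1 libraries, against 0.910 and 0.829 in the controls. With 2 libraries against 2 an exact permutation test cannot go below a p of 0.33, so ratios were not tested.

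Type I collagen, the main fibrillar collagen of bone and skin, showed little difference. COL1A1 had 169 and 167 CPM in the siUPF1 libraries, against 160.4 and 156 CPM in the controls (0.09, SE 0.07, adjusted p = 0.375, edgeR quasi-likelihood test). COL1A2 had 169.7 and 160 CPM in the siUPF1 libraries, against 164 and 158 CPM in the controls (0.03, SE 0.07, adjusted p = 0.781). They were the 2 fibrillar chains with the highest level per kilobase. COL1A1 stood at 0.910 and 0.953 of COL1A2 per kilobase in the siUPF1 libraries, against 0.892 and 0.897 in the controls. The ratio of COL12A1 to COL1A1, whose fibrils carry type XII collagen, was 0.563 and 0.442 in the siUPF1 libraries, against 0.0843 and 0.105 in the controls. COL27A1, a fibrillar chain of cartilage, had 80.5 and 99.9 CPM in the siUPF1 libraries, against 79.7 and 74.8 CPM in the controls. Its call (0.23, SE 0.08, adjusted p = 0.0134) was lost in 6 of 12 alternatives, and without siUPF1 replicate 2 the log2 fold change was 0.06 (adjusted p = 0.642).

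**Figure D3:**
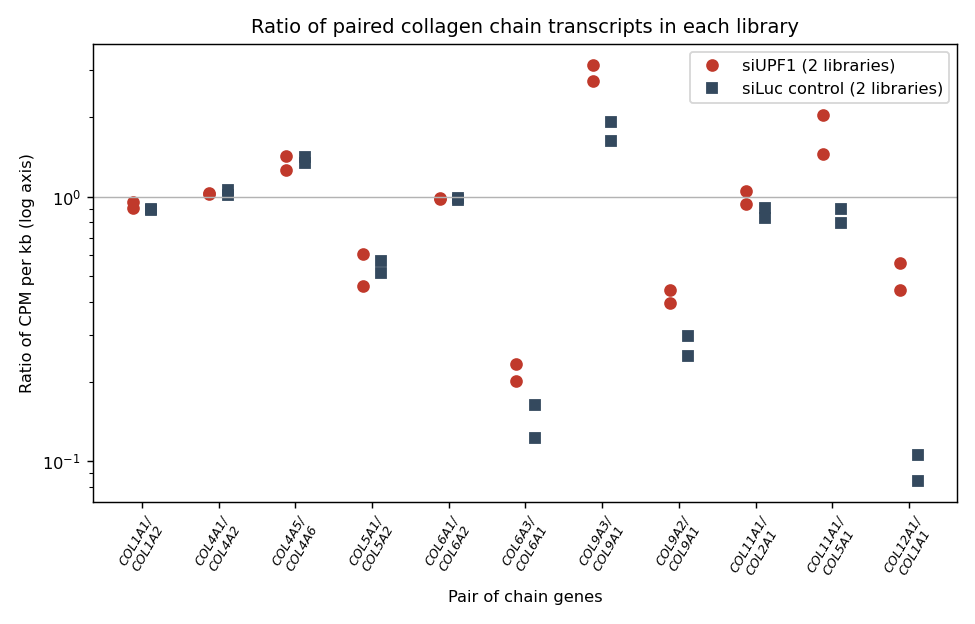
Ratio of CPM per kilobase between pairs of collagen chain genes in each library, on a log axis, with siUPF1 libraries (circles) left of the controls (squares). COL4A1 to COL4A2 (1.02 and 1.03 in siUPF1, 1.013 and 1.06 in siLuc) and COL6A1 to COL6A2 lie near 1 in both groups, and COL12A1 to COL1A1 shows the widest gap.

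The type IV chains of basement membranes changed little. COL4A1 and COL4A2, the chains of the common basement membrane network, were at places 3 and 4 of the members per kilobase in the siUPF1 libraries and at places 5 and 6 in the controls. COL4A1 had 240.4 and 243 CPM in the siUPF1 libraries, against 235 and 234 CPM in the controls, a log2 fold change of 0.04 (SE 0.07). COL4A2 had 222 and 222.5 CPM in the siUPF1 libraries, against 219 and 207 CPM in the controls (0.06, SE 0.07). Neither passed. COL4A2 exons overlap those of 2 antisense genes, COL4A2-AS1 and COL4A2-AS2. The X-linked pair COL4A5 and COL4A6 rose slightly. COL4A5 had 102 and 107 CPM in the siUPF1 libraries, against 89.4 and 91.9 CPM in the controls (0.20, SE 0.07, adjusted p = 0.0280, edgeR quasi-likelihood test). COL4A6 had 73.6 and 86.9 CPM in the siUPF1 libraries, against 64.8 and 70.6 CPM in the controls (0.25, SE 0.08, adjusted p = 0.00957). Each of these calls was lost in 6 of 12 alternatives, leaving out either control among them. COL4A4, the lowest member per kilobase in the siUPF1 libraries, had 12.01 and 15.0 CPM there, against 11.8 and 12.1 CPM in the controls, and did not pass (0.18, SE 0.16).

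The type IV genes lie head to head, each pair starting from one stretch of DNA and running apart. In RefSeq on GRCh38.p14, 126 bases separate the starts of COL4A1 and COL4A2 on chromosome 13, and 379 separate those of COL4A6 and COL4A5 on the X chromosome. The per-kilobase ratio of COL4A5 to COL4A6 was 1.42 and 1.26 in the siUPF1 libraries, against 1.42 and 1.34 in the controls, so both pairs had overlapping ratios. The stretch between the COL4A1 and COL4A2 starts is shown on the plus strand (chr13:110307158-110307283), because it lies before both starts of a pair whose levels changed little. The 250 bases before the start are shown for COL12A1 (chr6:75206054-75206303, minus strand) and COL11A1 (chr1:103108523-103108772, minus strand), which rose, for COL17A1 (chr10:104085881-104086130, minus strand), described next, and for COL13A1 (chr10:69801656-69801905, plus strand), which fell. All run 5′ to 3′ along the named strand, and capitals mark matches on either strand to the AP-1 site TGACTCA, the GC box GGGCGG, the CCAAT box and the TATA box TATAAA.
COL4A1-COL4A2: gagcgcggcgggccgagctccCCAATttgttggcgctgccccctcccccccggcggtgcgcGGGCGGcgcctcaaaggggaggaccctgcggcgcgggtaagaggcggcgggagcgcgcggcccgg
COL12A1: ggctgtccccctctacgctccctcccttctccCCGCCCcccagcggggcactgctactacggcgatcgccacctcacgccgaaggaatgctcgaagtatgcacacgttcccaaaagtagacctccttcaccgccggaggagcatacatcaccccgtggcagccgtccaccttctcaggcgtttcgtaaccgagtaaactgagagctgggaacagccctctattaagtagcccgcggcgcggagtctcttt
COL11A1: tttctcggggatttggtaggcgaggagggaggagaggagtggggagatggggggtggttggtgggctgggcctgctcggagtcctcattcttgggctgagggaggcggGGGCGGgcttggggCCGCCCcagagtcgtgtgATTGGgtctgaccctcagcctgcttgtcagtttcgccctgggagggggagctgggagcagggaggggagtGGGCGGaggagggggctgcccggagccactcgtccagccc
COL17A1: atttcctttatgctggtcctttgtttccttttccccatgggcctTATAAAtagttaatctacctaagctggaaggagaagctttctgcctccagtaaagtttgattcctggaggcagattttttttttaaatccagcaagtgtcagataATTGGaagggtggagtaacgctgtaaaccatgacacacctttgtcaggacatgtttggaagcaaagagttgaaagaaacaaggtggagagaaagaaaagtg
COL13A1: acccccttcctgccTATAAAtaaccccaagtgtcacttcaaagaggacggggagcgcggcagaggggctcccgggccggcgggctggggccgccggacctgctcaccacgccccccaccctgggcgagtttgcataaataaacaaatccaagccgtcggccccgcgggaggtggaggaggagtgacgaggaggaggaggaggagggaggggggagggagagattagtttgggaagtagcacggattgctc

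Promoters were matched by symbol for 24 of the 33 members. These had 30 promoters, and in the 250 bases before the start 18 held a GC box, 8 a CCAAT box, 5 a TATA box and 0 the AP-1 site. Among all 35116 RefSeq promoters the shares were 42.6% for the GC box, 32.0% for the CCAAT box, 10.7% for the TATA box and 4.20% for the AP-1 site. COL12A1 held 1 GC box and none of the other motifs, and COL11A1 held 3 GC boxes and 1 CCAAT box. The COL4A1-COL4A2 stretch held 1 GC box and 1 CCAAT box. COL13A1 held a TATA box only. COL17A1 held 1 TATA box and 1 CCAAT box. A match is a run of letters and was not tested as a site. The motifs were chosen with these results known.

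The transmembrane chains went apart. COL17A1, a chain of the hemidesmosomes that anchor epithelial cells, had 14.2 and 14.6 CPM in the siUPF1 libraries, against 9.28 and 7.98 CPM in the controls, a log2 fold change of 0.74 (SE 0.17, adjusted p = 0.000154, edgeR quasi-likelihood test). COL13A1, a chain found at cell contacts and the neuromuscular junction, was the only member to fall by at least 2-fold in this test. It had 5.202 and 6.24 CPM in the siUPF1 libraries, against 12.2 and 12.1 CPM in the controls, from 52 and 70 counts against 108 and 121 (-1.08, SE 0.19, adjusted p = 3.33e-07). The groups did not overlap for either gene. COL23A1 had 23.3 and 27.8 CPM in the siUPF1 libraries, against 27.6 and 26.9 CPM in the controls. COL25A1 had 22.2 and 25.7 CPM in the siUPF1 libraries, against 25.3 and 26.0 CPM in the controls. Neither passed, and the groups overlapped for both.

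Type VI collagen forms beaded filaments from 3 unlike chains, and their transcripts moved apart. COL6A1 had 131 and 145 CPM in the siUPF1 libraries, against 169 and 156 CPM in the controls (-0.23, SE 0.07, adjusted p = 0.00526, edgeR quasi-likelihood test). COL6A2 had 116 and 129.5 CPM in the siUPF1 libraries, against 152 and 137 CPM in the controls (-0.24, SE 0.07, adjusted p = 0.00476). COL6A3 had 58.4 and 74.7 CPM in the siUPF1 libraries, against 46.2 and 56.7 CPM in the controls, and rose (0.37, SE 0.08, adjusted p = 8.44e-05). COL6A1 kept close to COL6A2 per kilobase, at 0.9904 and 0.977 in the siUPF1 libraries, against 0.971 and 0.991 in the controls. COL6A3 stood at 0.201 and 0.232 of COL6A1 in the siUPF1 libraries, against 0.123 and 0.164 in the controls. The libraries of a group differed for COL6A3, replicate 2 over replicate 1 by 0.36 and control b over control a by 0.30 on the log2 scale. COL6A3 did not pass without siUPF1 replicate 2 (0.18, adjusted p = 0.139) or without control a (adjusted p = 0.190), and in DESeq2 it had an adjusted p of 0.354. COL6A1 and COL6A2 did not pass without siUPF1 replicate 1 or without control a, nor in DESeq2.

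The member with the highest level per kilobase in both groups was COL18A1, a basement membrane proteoglycan whose cleaved end is endostatin. It had 303 and 300.3 CPM in the siUPF1 libraries, against 335 and 307 CPM in the controls, and did not pass (-0.09, SE 0.07, adjusted p = 0.397, edgeR quasi-likelihood test). COL26A1, at place 2 in the siUPF1 libraries and place 4 in the controls, had 118.6 and 119 CPM in the siUPF1 libraries, against 114 and 104 CPM in the controls, and did not pass (0.13, SE 0.07). COL7A1, the chain of the anchoring fibrils under the epidermis, was low and overlapping, at 15.5 and 17.6 CPM in the siUPF1 libraries, against 12.7 and 16.3 CPM in the controls. Of the remaining FACIT chains, COL22A1 was called up (0.33, SE 0.13, adjusted p = 0.0432), a call lost in 8 of 12 alternatives. It had 23.3 and 24.05 CPM in the siUPF1 libraries, against 19.8 and 17.9 CPM in the controls. COL14A1 had 92.5 and 98.4 CPM in the siUPF1 libraries, against 97.6 and 105 CPM in the controls, with groups that overlapped. COL21A1 had 14.7 and 15.3 CPM in the siUPF1 libraries, against 17.65 and 19.25 CPM in the controls, with both siUPF1 libraries below both controls. COL14A1 (-0.09, SE 0.07), COL21A1 (-0.30, SE 0.15) and COL16A1 (-0.01, SE 0.11) did not pass. With the trend on read density removed, COL14A1 (-0.16, adjusted p = 0.0417) and COL21A1 (-0.41, adjusted p = 0.0209, edgeR quasi-likelihood test) were called lower. COL21A1 was also called lower among genes under 0.25 reads per base (-0.35, adjusted p = 0.0398, edgeR quasi-likelihood test). The siUPF1 libraries were above the 2 controls for 17 members, where this held for 32.3% of all tested genes, and below them for 9, where it held for 31.1%. Together that was 78.8% of the members and 63.4% of all tested genes. Summed over the 33 members, collagen transcripts came to 2744 and 2797 CPM in the siUPF1 libraries, against 2583 and 2540 CPM in the controls, and without COL12A1 to 2566 and 2658 CPM, against 2558 and 2509 CPM.

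Members differed in how firmly they were called. Of the 17 called members 7 were called in the same direction under every alternative that refitted the test with them in it: COL12A1, COL8A1, COL11A1, COL2A1, COL9A3 and COL17A1 up, and COL13A1 down. Over these alternatives the log2 fold change ranged from 2.30 to 2.66 for COL12A1, 1.725 to 2.10 for COL8A1, 0.63 to 0.83 for COL11A1, 0.43 to 0.64 for COL2A1, 0.42 to 0.51 for COL9A3, 0.63 to 0.85 for COL17A1 and -1.22 to -0.96 for COL13A1. The highest adjusted p among them was 0.0479, for COL17A1 without control b (edgeR quasi-likelihood test). The other 10 called members had log2 fold changes between -0.28 and 0.37, and each lost its call in at least 1 alternative. Without control a, 6 members rose and 2 fell, where 12.8% of all genes were called, 9.28% up and 3.55% down. Without control b, 7 rose and 4 fell, where 14.1% of all genes were called, 10.2% up and 3.89% down. Without siUPF1 replicate 2, 6 rose and 7 fell, where 24.3% of all genes were called, 14.6% up and 9.72% down. Without siUPF1 replicate 1, 12 rose and 2 fell, where 27.6% of all genes were called, 17.7% up and 9.82% down.

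**Figure D4:**
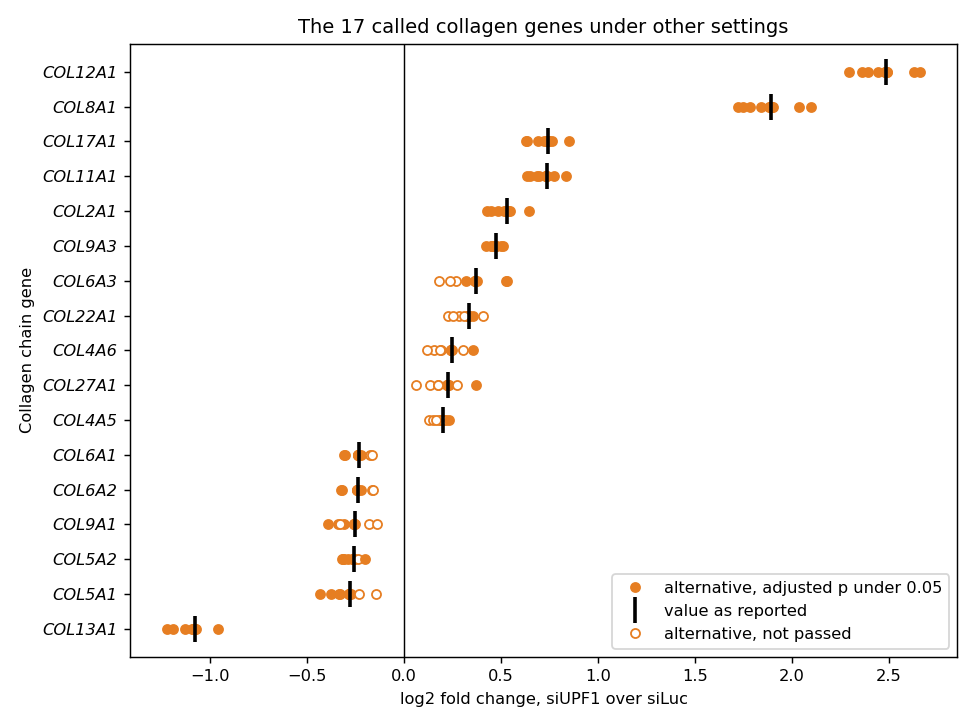
The log2 fold change of the 17 called collagen genes as reported (bar) and under each alternative (circles, filled where the adjusted p was under 0.05). All circles are filled for COL12A1, COL8A1, COL17A1, COL11A1, COL2A1, COL9A3 and COL13A1, and each of the other 10 genes has open circles.

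Read density moved with the direction of change. Reads per transcript base had a median of 0.1085 for the members and 0.172 for all tested genes, since collagen transcripts are long (median 5576 bases, against 2740). In the densest quintile of all genes, from 0.348 reads per base, the median log2 fold change was -0.08 and 5.11% were called up and 10.96% down. In the sparsest quintile the median was 0.075, and 19.0% were called up and 9.77% down. In quintile 2 from the sparse end, 24.0% were called up and 10.2% down. The 6 members in the densest quintile included 0 risers and 2 fallers, COL6A1 and COL6A2. Removing the trend on this density, library by library, left 6 risers and 8 fallers, where 27.2% of all genes were called, 13.9% up and 13.3% down. Risers then made up 42.9% of the calls among members in place of 64.7%, and 51.2% among all genes in place of 64.8%. The 6 risers were COL12A1, COL8A1, COL11A1, COL2A1, COL9A3 and COL17A1, and COL13A1 stood at -1.19 (adjusted p = 0.000804, edgeR quasi-likelihood test). Among genes under 0.25 reads per base, which took in 24 members, 6 rose and 5 fell, where 28.6% of all such genes were called, 16.6% up and 12% down. The 9 members at 0.25 reads per base or more included COL1A1 (0.277), COL1A2 (0.303), COL4A2 (0.354), COL4A1 (0.365) and COL18A1 (0.586). None of those named passed. Of the 9, 3 were called: COL9A3 (0.280) rose, and COL6A1 (0.355) and COL6A2 (0.362) fell. Of all tested genes, 25.9% were called. No gene with a mean of at least 100 counts was above 1.123 reads per base. Whether repeated reads were removed is not given, and its part in the small changes of such members was not tested. The part of read density in the collagen changes was not tested either.

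**Figure D5:**
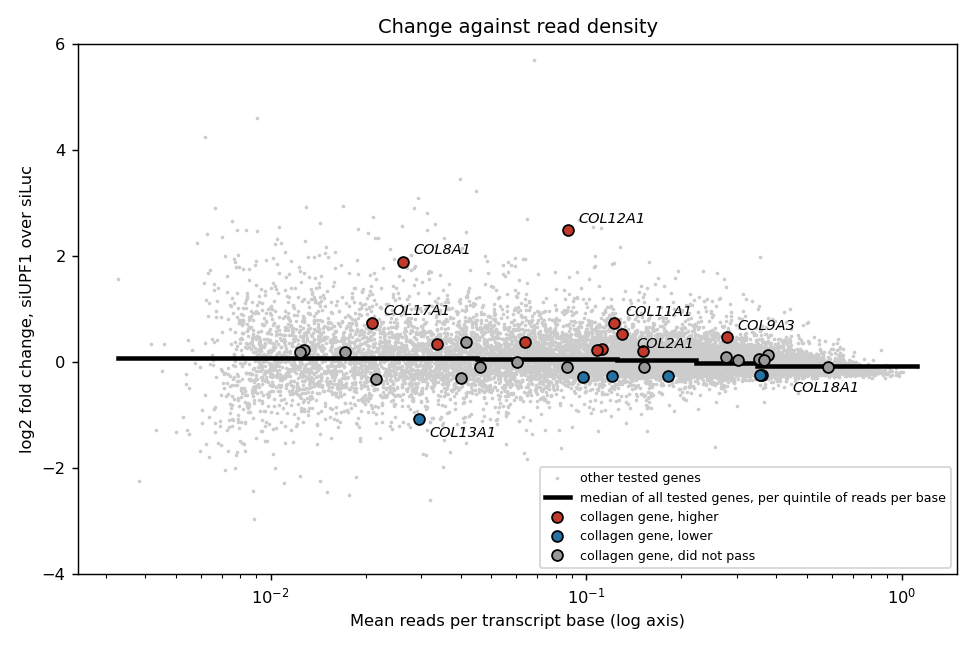
The log2 fold change of each tested gene against its mean reads per transcript base on a log axis, with collagen genes as large circles and the median of each quintile of all genes as a black line. The black line falls to -0.08 in the densest quintile, and COL12A1 and COL8A1 lie far above it.

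Transcript features tied to NMD were taken from GENCODE release 29, in which all 33 members matched by symbol. Upstream AUGs, start codons in the 5' UTR that can lead translation to stop early, occurred in 19 members, in the coding transcript with the longest reading frame. Of these 19, 10 rose and 3 fell. Of the 14 members with none, COL9A3 rose and COL6A1, COL6A2 and COL9A1 fell. Among these 14, the 5' UTR of the transcript used was 0 bases for COL18A1 and 15 for COL9A3, which leaves little or no room for one. Among 13476 tested coding genes, 17.6% of those with an upstream AUG and 15.8% of those without were called up, and 10.03% and 9.60% were called down. The 5' UTR was also longer in the 19 members (median 380 bases) than in the 14 (136.5 bases), and the part of length in the split was not tested. COL8A1 and COL17A1 had 3 upstream AUGs each and COL12A1 and COL11A1 1 each, while COL5A2 had 7 and fell and COL1A2 had 5 and did not pass. A transcript annotated as an NMD target was listed for 9 members, of which 4 rose, COL11A1, COL17A1, COL27A1 and COL4A5, and 2 fell, COL13A1 and COL9A1. Of the 24 members without one, 7 rose and 4 fell. Among all tested coding genes, 17.7% of the 5529 with such a transcript were called up and 7.05% down, against 16.0% up and 11.7% down of the others. Neither COL12A1 nor COL8A1 has one. The 3' UTR was 2221 bases long for COL12A1 and 3090 for COL8A1, with a median of 1080 over the members and 966 over the tested coding genes. These features were looked at after the calls were known, and gene counts cannot tell which isoform changed.

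Among 52 tested genes on 5 lists of collagen biology, 10 rose and 5 fell. That is 28.8% of them, where 25.9% of all tested genes were called, and the share by list ran from 14.3% of the receptors to 42.9% of the processing and crosslinking genes and of the fibril-associated genes. Of 19 tested genes for enzymes and chaperones that modify and fold collagen chains, 3 rose, 0 fell and 16 did not pass. The risers were P3H2, a prolyl 3-hydroxylase gene (0.40, SE 0.09), COLGALT2, a collagen galactosyltransferase gene (0.46, SE 0.11), and PLOD3, a lysyl hydroxylase gene (0.25, SE 0.08). The collagen chaperone gene SERPINH1 had 166.5 and 150.0 CPM in the siUPF1 libraries, against 185 and 168 CPM in the controls, and did not pass (adjusted p = 0.0826, edgeR quasi-likelihood test). COLGALT2 and PLOD3 did not pass in DESeq2 or without control a, nor PLOD3 without control b.

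Of 14 genes that trim procollagen or crosslink fibrils, 4 rose, 2 fell and 8 did not pass. Over all tested genes, 16.8% were called up and 9.14% down. The fallers were the procollagen protease genes ADAMTS3 (-0.70, SE 0.13) and TLL1 (-1.32, SE 0.27). TLL1 had 2.10 and 2.14 CPM in the siUPF1 libraries, against 5.88 and 4.79 CPM in the controls. The crosslinking enzyme gene LOXL3 rose by 0.41 (SE 0.11), and LOX, which encodes lysyl oxidase, by 0.52 (SE 0.18). DESeq2 called 0 of these 14 up, and LOXL3 did not pass without control b (adjusted p = 0.0840, edgeR quasi-likelihood test).

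Among 7 measured collagen receptor genes, DDR2, which encodes a receptor kinase that binds fibrillar collagens, rose and the others did not pass. DDR2 had 29.6 and 28.95 CPM in the siUPF1 libraries, against 8.94 and 11.7 CPM in the controls (1.496, SE 0.14, adjusted p = 8.88e-24, edgeR quasi-likelihood test). DDR1, its relative, stood at -0.002 (SE 0.07). ITGB1, the shared beta chain of collagen-binding integrins, stood at -0.09 (SE 0.07) and ITGA2, an alpha chain, at 0.11 (SE 0.09).

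Of 5 measured genes for proteases that cut collagen, 2 fell and 0 rose. Over all tested genes, 9.14% were called down and 16.8% up. MMP9, a gelatinase gene, had 17.9 and 19.7 CPM in the siUPF1 libraries, against 37.0 and 39.1 CPM in the controls (-1.02, SE 0.12). CTSK, the cathepsin K gene, changed by -0.84 (SE 0.16), and MMP2 (-0.11, SE 0.07) and MMP14 (0.05, SE 0.07) did not pass. Among 7 measured genes for proteins of the fibril surface and matrix, the tenascin genes TNC (0.59, SE 0.08) and TNXB (0.53, SE 0.10) rose. BGN, the biglycan gene, fell (-1.18, SE 0.17). TNXB has a near-identical partial copy in the genome, so its count is uncertain.

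Markers of mesenchymal cells were measured beside the collagens. Of a fixed list of 14 genes, 10 were measured, of which 4 rose, 1 fell and 5 did not pass, where 16.8% of all tested genes were called up and 9.14% down. The measured markers summed to 407 and 388 CPM in the siUPF1 libraries, against 365 and 364 CPM in the controls. TAGLN (0.44, SE 0.08), PDGFRB (0.40, SE 0.09), CDH11 (0.36, SE 0.10) and TWIST1 (1.58, SE 0.34) rose, and PDGFRA fell (-0.61, SE 0.14). In DESeq2 and without control a, 2 of the 10 rose. Without control a PDGFRB stood at 0.24 (adjusted p = 0.215, edgeR quasi-likelihood test), and TWIST1 had an adjusted p of 0.0501 in DESeq2. TWIST1 rested on 36 and 35 counts in the siUPF1 libraries, against 10 and 11 in the controls. DCN, LUM, FAP and PRRX1 were not analysed here. Of 2 measured endothelial markers, ERG was lower (-1.14, SE 0.30), a call lost in DESeq2 and without control b, and TEK did not pass, and of 2 measured endoderm markers FOXA2 was lower (-2.97, SE 0.37) and SOX7 did not pass. The part of such cells in the collagen changes was not tested.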

How the data were processed

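Gene expression was measured by RNA-seq in 4 libraries of H9 cells. The deposited table holds whole-number read counts, not normalized, and RPKM values that the authors computed beside them (reads per kilobase and library total). Per the submitters' processing notes, STAR, DESeq2 and the build hg19 were used; versions, roles, strand setting and the treatment of multimapping or repeated reads are not given in the sources used here. Counts per library ran from 8887239 to 11200973. At that depth counting error is small at 100 CPM and large near 1 CPM. The 2 control RPKM columns share a name and were not used. Transcript length was recovered from the siUPF1 columns as count over RPKM and library total.

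The test was edgeR 4.0.16 in R 4.3.3 (glmQLFit and glmQLFTest, two-sided) on counts, with TMM, filterByExpr (385 genes left out) and Benjamini-Hochberg adjustment over 15557 genes at 0.05. The SE is the log2 fold change divided by the square root of F. The biological coefficient of variation was 4.47%. The test was tested on simulated data. Alternatives used DESeq2 1.42.0, limma-voom (limma 3.58.1), RLE factors, no factors, other filters and thresholds, each library left out, genes under 0.25 reads per base, and removal of the trend on reads per base (loess, span 0.3).

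The members and gene lists were chosen with earlier results of these data known. Values per library are given for members past the threshold, the 3 most abundant per length, and the others at a mean of at least 5 CPM; of each gene list, the 3 genes with the smallest p are named. SERPINH1, LOX, DDR1, MMP14, PDGFRA and CDH11 were named after their values were seen, and chain pairs, promoter motifs and transcript features were chosen then too.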

Additional observations from a re-analysis of the deposited data

How the results depend on the processing

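Of 387 recomputed log2 fold changes of single collagen chain genes, 331 kept their direction and side of the threshold, 47 lost a call, 5 gained one and 4 changed sign. Under DESeq2 6 collagen genes rose and 2 fell, with 1739 of all genes called. A fold of at least 2 left 2 risers, 1 faller and 538 genes overall. Among genes under 0.25 reads per base there were 6 risers and a median log2 fold change of 0.14, and removing the trend on read density left 6 risers and a median of 0.0734. Leaving out each library gave 6 to 12 risers, 2 to 7 fallers, a median of 0.0504 to 0.0987 and 1996 to 4287 genes called, where the lone library of a group takes its spread from the other group. The log2 fold changes that changed sign had not passed. Leaving out libraries gave COL1A2 -0.0111 to 0.0737, COL23A1 -0.225 to 0.0283, TEK -0.1645 to 0.135 and ITGA2 -0.0200 to 0.259. COL18A1 stood at 0.0113 and ITGB1 at 0.0296 with the trend removed. Among the lists, processing and crosslinking genes gave 0 to 5 risers and 1 to 4 fallers, modifying enzymes 1 to 3 and 0 to 2, mesenchymal markers 2 to 5 risers, and stem cell markers 0 to 7, chondrocyte markers 0 to 2 and endothelial and endoderm markers 0 to 1 fallers. The filter of at least 5 CPM in 2 libraries left FOXA2 and TLL1 untested. It gave the 0 fallers among endoderm markers and the 1 faller among processing and crosslinking genes. Other causes were not tested. No paired analysis was possible because both control columns carry the same name and no replicate number of their own. Depth limits the members under 15 CPM in both groups, COL8A1, COL13A1, COL17A1, COL9A2, COL8A2, COL5A3 and COL4A4.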

Other observations

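The 2 siUPF1 libraries differed from each other over genes in general (chi-square per degree of freedom 2.85) and among the collagen genes. Replicate 2 was above replicate 1 for 24 of 33 members, by a median of 0.06 on the log2 scale, while control b was above control a for 16 of 33. These counts were not made over all tested genes, so they cannot be read as particular to collagen genes. Among the firmest risers, replicate 2 was lower than replicate 1 for COL12A1 (-0.365), COL8A1 (-0.29), COL11A1 (-0.20) and COL2A1 (-0.03), and higher for COL17A1 (0.04) and COL9A3 (0.05). UPF1 itself stood at 60.8 CPM in replicate 1 and 78.2 CPM in replicate 2. A link between UPF1 level and collagen level was not tested. The 5 members with the widest margin in favour of replicate 2 were COL8A2 (0.43), COL9A2 (0.42), COL6A3 (0.36), COL4A4 (0.32) and COL27A1 (0.31).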
